A study of Mus musculus with 18 samples.

Results

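The leukocyte and inflammatory miRNAs comprised 8 mature sequences of the 1412 in the count table: mmu-miR-150-5p and mmu-miR-150-3p, mmu-miR-223-3p, mmu-miR-142a-3p and mmu-miR-142a-5p, mmu-miR-155-5p, mmu-miR-146a-5p and mmu-miR-146b-5p (mmu, for mouse, is dropped from here on). They were taken by name, and all 8 were among the 428 miRNAs that passed the filter on low counts and were tested. Small RNA was sequenced from femoral condyle cartilage of C57bl6 mice, described in the study's methods as male C57Bl/6J of 12 weeks. In the injured groups a single mechanical load had ruptured the anterior cruciate ligament (ACL) of the right knee, and cartilage was taken at day 1 or day 7. The left, uninjured knee of loaded animals gave the contralateral groups of both days, and naïve animals received no load. The labels place all naïve libraries at day 7, so day 1 libraries were compared with naïve cartilage of day 7. The 18 libraries were 6 naïve, 3 day 1 contralateral, 3 day 1 injured, 3 day 7 contralateral and 3 day 7 injured, and no further treatment or allele distinguished them. Each library was a pool of cartilage from more than 1 knee, and the labels give no animal or pool for a library. The paper lists 6 naïve mice with left and right knees pooled separately, so naïve libraries share mice. Injured and contralateral libraries of a day can share animals too. P-values measure the spread between libraries taken as independent. Day 7 pools held more mice than day 1 pools, which the study ascribes to partial loss of cartilage. The part of pool size in the spread was not tested.

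MicroRNAs are short RNAs that guide Argonaute proteins to partly complementary sites in messenger RNAs and lower their output, and the bases of the seed near the 5′ end do most of the pairing. Several are made almost exclusively by blood-derived cells and serve as tracers of them in other tissues. miR-142a is present in nearly all leukocytes. miR-223 is most abundant in neutrophils and other myeloid cells, where it restrains their production and activation, and miR-150 is most abundant in mature lymphocytes, where it limits the transcription factor Myb. miR-155 and miR-146a are induced by NF-κB signalling: miR-155 promotes inflammatory activation, whereas miR-146a feeds back on the signalling proteins Traf6 and Irak1, and miR-146b is a close relative from another locus. Articular cartilage has no vessels and holds few leukocytes, and NF-κB also raises miR-146a in chondrocytes. In bulk cartilage, fewer leukocytes and less of a miRNA per leukocyte cannot be told apart.

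The mature sequences show which members can share targets and reads. Each is given 5′ to 3′ from RefSeq (GRCm38.p6), with the seed, bases 2 to 8, in capitals, and 7 of the 8 members were matched there.
miR-223-3p: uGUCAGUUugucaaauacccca
miR-142a-3p: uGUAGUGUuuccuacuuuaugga
miR-142a-5p: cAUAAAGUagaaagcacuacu
miR-155-5p: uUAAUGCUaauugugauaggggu
miR-146a-5p: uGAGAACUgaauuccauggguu
miR-146b-5p: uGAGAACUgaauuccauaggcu
miR-150-3p: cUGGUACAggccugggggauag
Only miR-146a-5p and miR-146b-5p had the same seed, and among the mature sequences of RefSeq that the table counted no other had the seed of any of these 7. The pair was identical at 20 of 22 bases and differed by G18A and U21C, counted from the 5′ end with the base of miR-146a-5p first, so the distinction rests on the 3′ end of a read. None of the 8 members had the same count as another miRNA in every library.

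The hairpins lie at 6 loci (GRCm38, GENCODE annotation). Mir150 (chr7:45121757-45121821, plus strand) is intergenic. Mir223 (chrX:96242817-96242926, plus strand) lies in an exon of the non-coding transcript F630028O10Rik, and Mir155 (chr16:84714140-84714204, plus strand) in an exon of its host lincRNA Mir155hg. Mir146, the gene of miR-146a (chr11:43374397-43374461, minus strand), is intergenic, and Mir146b (chr19:46342762-46342870, plus strand) overlaps an intron of Mfsd13a. Mir142 (chr11:87756864-87756927, plus strand) lies in an intron of the lincRNA Mir142hg, opposite Mir142b on the minus strand. Its hairpin is shown because both arms were counted, with the 5p arm first and the 3p arm second in capitals.
Mir142 hairpin: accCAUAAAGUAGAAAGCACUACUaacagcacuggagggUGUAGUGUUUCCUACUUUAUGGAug

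Library totals ranged between 758388 counts (the first day 7 injured library) and 4088852 (the second day 7 contralateral library). Day 7 contralateral replicate 1 stood apart: it was the highest or the lowest of the 18 libraries for 47.2% of the tested miRNAs, against 3.27% to 25% for each other library. Fold changes of the members that rest on this library are also given without it. The correlations and the sums and medians of the lists of other miRNAs include it. Among libraries of the same group, the first principal component of log2 CPM (counts set to a common library size after TMM scaling) held 31.3% of the variance, with day 1 injured replicate 2, naïve replicate 3, day 7 contralateral replicate 1 and naïve replicate 5 at its high end, in that order. miR-150-3p and miR-150-5p ranked 8 and 11 of 428 from the top by their weight on this component, and miR-142a-5p ranked 407. The cartilage miRNA miR-140-5p averaged 4848 ± 1328 CPM (SD, n = 6) in naïve libraries. The muscle miRNA miR-1a-3p averaged 132081 ± 49391 CPM and the endothelial miR-126a-3p 51855 ± 12930 CPM in the same libraries, so markers of muscle and endothelium were present beside the cartilage marker.

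In naïve cartilage the 8 members ranked from 41 (miR-146a-5p) and 44 (miR-142a-3p) to 417 (miR-150-3p) of the 428 tested miRNAs by mean CPM. Together they took 1.08% ± 0.141 (SD, n = 6) of naïve counts and between 0.582% and 1.85% over all 18 libraries. The plot of CPM by library shows the levels of each member.

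**Figure D1:**
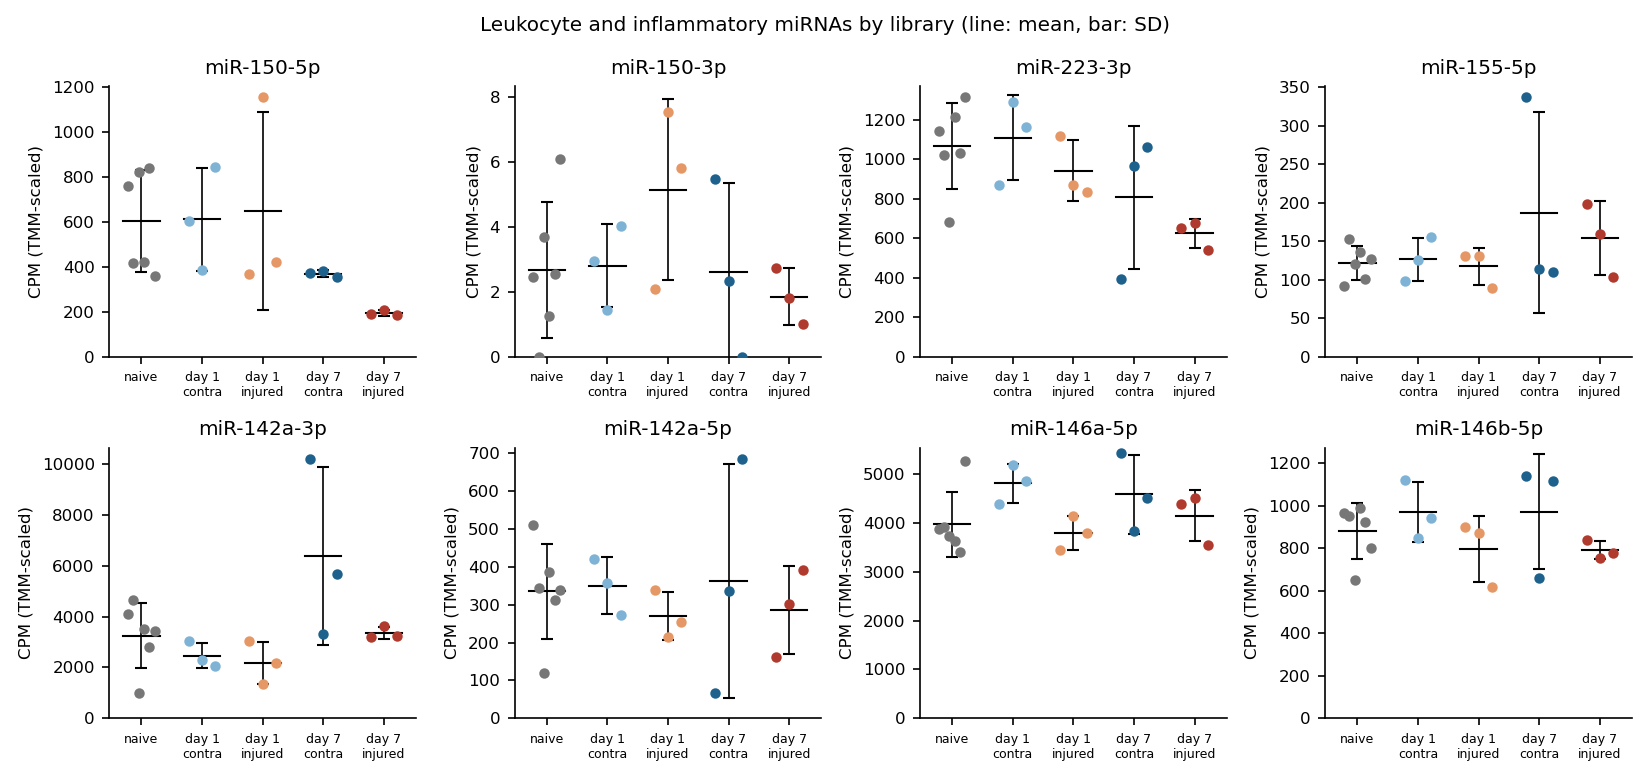
CPM (y axis, linear, from 0) of the 8 leukocyte and inflammatory miRNAs in each of the 18 libraries (points), by group, with the mean (line) and SD (bar). The 3 day 7 injured libraries of miR-150-5p lie between 185.7 and 208.2 CPM, below the other 15 libraries, and 1 day 7 contralateral library lies at 10184 CPM of miR-142a-3p.

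The lymphocyte miRNA miR-150-5p fell 2.91-fold in day 7 injured cartilage relative to naïve cartilage and was the sole member of the 8 to pass the test there. Naïve libraries held 359 CPM at the lowest, 593 at the median and 840.2 at the highest, and none lay near the median: replicates 1, 3 and 5 held 762.9, 822.1 and 840.2 CPM and replicates 2, 4 and 6 held 416.8, 422.1 and 359 CPM. Day 7 injured libraries held 189.6, 208.2 and 185.7 CPM, and the groups did not overlap. The means were 604 ± 227 CPM (naïve, SD, n = 6) and 194.5 ± 12.0 CPM (day 7 injured, SD, n = 3), and the log2 fold change was -1.54 ± 0.36 (SE; adjusted p = 0.00317, limma-voom with Benjamini-Hochberg adjustment over 428 miRNAs). Across all tested miRNAs 18.2% were called in this comparison and 3.74% were called as lower, 16 miRNAs, a number that ranged between 3 and 55 over the alternatives. The call was kept under all 19 alternatives, with log2 fold changes between -1.67 and -1.39 and adjusted p between 1.98e-05 and 0.0229. The lowest adjusted p was that with the within-group component as a covariate, described below.

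In the other groups every library held more miR-150-5p than the injured libraries of day 7. Day 1 contralateral libraries held 606, 388 and 846 CPM, day 1 injured libraries 368.7, 1158 and 424 CPM, and day 7 contralateral libraries 374.3, 382.7 and 354 CPM. The 1158 CPM came from day 1 injured replicate 2, the library at the top of the within-group component, and both day 1 groups overlapped naïve. Day 7 contralateral libraries (370.2 ± 15.02 CPM, SD, n = 3) lay near the 3 lower naïve libraries, below the other 3 and above all day 7 injured libraries. The within-group component as a covariate was an alternative chosen after the data were seen. With it the day 7 injured versus naïve call held at an adjusted p of 1.98e-05 (limma-voom). The component was computed from these same libraries with group means removed, and miR-150-5p ranked 11 of 428 by weight on it. As a covariate it takes up part of the spread of miR-150-5p itself, so the lower p is not separate support.

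Relative to the contralateral knee of the same day, miR-150-5p was 1.90-fold lower in day 7 injured libraries, with a log2 fold change of -0.93 ± 0.41 (SE) and no overlap, but an adjusted p of 0.167. In that comparison 0 of the 8 members passed limma-voom, edgeR or DESeq2, while 14.7% of all tested miRNAs passed limma-voom, and miR-150-5p alone among the members had an unadjusted p under 0.05. The adjusted p of miR-150-5p was 0.288 without day 7 contralateral replicate 1. It was 0.0342 in a fit of the 2 groups alone. With the within-group component as a covariate it was 0.0133, which is not separate support, since miR-150-5p itself weighs on that component. No overlap was seen for 26.6% of all miRNAs here, compared with 24.1% in the naïve comparison.

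From day 1 to day 7, miR-150-5p in injured knees fell 2.89-fold, a log2 fold change of -1.53 ± 0.41 (SE; adjusted p = 0.0123, limma-voom). It was the 1 member of 8 called, with 15.7% of all tested miRNAs called. miR-150-5p, miR-223-3p and miR-142a-3p did not overlap between the 2 groups, as was the case for 34.3% of all miRNAs. The call rested on single libraries: without day 1 injured replicate 2 the log2 fold change was -0.91 and the adjusted p 0.155, and without day 7 injured replicates 1, 2 and 3 the adjusted p was 0.0665, 0.0523 and 0.0736. Scaling by library totals alone gave 0.0809. The difference between the injury effects of the 2 days, each relative to its own contralateral group, was -0.88 ± 0.58 (SE) for miR-150-5p, with an adjusted p of 0.528 (-0.78 and 0.618 without day 7 contralateral replicate 1). There 0 members passed, by limma-voom, edgeR or DESeq2 or at an unadjusted p under 0.05, and 6.78% of all tested miRNAs passed limma-voom.

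The other arm of the hairpin, miR-150-3p, was near the limit of detection, with 0 to 12 counts per library. Day 7 injured libraries held 2, 4 and 3 counts and day 1 injured libraries 4, 9 and 12. Naïve replicate 2 and day 7 contralateral replicate 3 held 0, which allows up to 1.22 and 1.20 CPM (3 counts of the total). The 5p arm made up between 98.3% and 100% of miR-150 counts. The log2 fold change of miR-150-3p between day 7 injured and naïve libraries was -0.03 with a 95% interval from -2.01 to 1.95, so that a change of the size of the 5p arm was not detectable at this depth.

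The myeloid miR-223-3p was lower in day 7 injured cartilage without passing the main test. Naïve libraries held 679.6 CPM at the lowest, 1087 at the median and 1313 at the highest, and day 7 injured libraries 651, 678.8 and 542.7 CPM. The groups did not overlap, but naïve replicate 3 at 679.6 CPM was just above the highest injured library at 678.8. The mean was 1066 ± 219.3 CPM (SD, n = 6) in naïve and 624 ± 72.0 CPM (SD, n = 3) in injured libraries, and the log2 fold change was -0.75 ± 0.28 (SE; adjusted p = 0.0744, limma-voom). In 6 of the 19 alternatives it passed: library totals (0.0455), DESeq2 (0.0204), quality weights (0.000778), only the 2 groups (0.0185), without naïve replicate 3 (0.0241), and the within-group component as a covariate (0.0233). The component was computed from these same libraries, so the last of these is not separate support.

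In the other groups miR-223-3p had 870.9, 1290.4 and 1164 CPM (day 1 contralateral), 1118, 869 and 836 CPM (day 1 injured) and 394, 965 and 1059.8 CPM (day 7 contralateral). The 394 CPM, the lowest of all 18 libraries, belonged to day 7 contralateral replicate 1. Relative to day 7 contralateral, the injured libraries differed by a log2 fold change of -0.28 ± 0.32 (SE; adjusted p = 0.662, limma-voom). Without that library the value was -0.64 with an adjusted p of 0.142. Relative to day 1 injured libraries it was -0.59 ± 0.32 (SE; adjusted p = 0.256), and with quality weights the adjusted p was 0.0230.

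The pan-leukocyte miR-142a-3p was within its naïve range in all day 7 injured libraries. They held 3189, 3612 and 3233 CPM, and the naïve libraries 980.0 CPM at the lowest, 3482.6 at the median and 4658 at the highest. The means were 3345 ± 233 (SD, n = 3) and 3249.6 ± 1274.7 CPM (SD, n = 6), and the log2 fold change was 0.18 with a 95% interval from -0.66 to 1.02 (adjusted p = 0.798, limma-voom). The naïve low of 980.0 CPM was replicate 3. Without it the log2 fold change was -0.10.

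Day 1 libraries held 3025, 2305 and 2067 CPM of miR-142a-3p in contralateral and 3020.1, 1349 and 2158 CPM in injured knees. Day 7 contralateral libraries held 10184, 3298 and 5666.5 CPM, and the log2 fold change of day 7 injured relative to them was -0.75 ± 0.45 (SE; adjusted p = 0.340, limma-voom). Without replicate 1, the library at 10184 CPM, it was -0.29 with an adjusted p of 0.775. From day 1 to day 7 in injured knees the log2 fold change was 0.68 ± 0.47 (SE; adjusted p = 0.395).

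The 5p arm of miR-142a was about an order of magnitude less abundant. Naïve libraries held 120.4 CPM at the lowest, 340.9 at the median and 509.8 at the highest, day 1 contralateral libraries 422, 357 and 272, day 1 injured 338.9, 215.3 and 254, day 7 contralateral 65.9, 337.3 and 684, and day 7 injured 162, 303 and 392 CPM. All 5 groups overlapped. The log2 fold change between day 7 injured and naïve libraries was -0.19 ± 0.52 (SE; adjusted p = 0.840, limma-voom). Relative to day 7 contralateral libraries the fitted value was 0.11 ± 0.60 (SE; adjusted p = 0.941), although the mean of the injured libraries was lower (286 relative to 362.3 CPM), and without replicate 1 of that group it was -0.75.

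The arms of the Mir142 hairpin printed above were furthest apart in 2 libraries. The 5p share of miR-142a counts was 9.62% ± 1.56 (SD, n = 6) in naïve libraries. It was 12.4% ± 0.907 (SD, n = 3) in day 1 contralateral and 11.5% ± 2.002 (SD, n = 3) in day 1 injured libraries. Day 7 contralateral replicate 1 had 96 counts of the 5p arm and 14829 of the 3p arm, a share of 0.643% (exact 95% binomial interval 0.521% to 0.785%, counting error only). The other 17 libraries lay between 4.84% and 13.8%, the lowest being day 7 injured replicate 1 with 118 and 2321 counts (interval 4.02% to 5.77%). The other day 7 injured libraries had 7.74% and 10.8%. For miR-223, the 5p share of day 7 contralateral replicate 1 was 30.8%, the highest of all 18 libraries, with a lowest share of 13.8%, so the shift to the 3p arm of miR-142a was not matched at this hairpin.

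**Figure D2:**
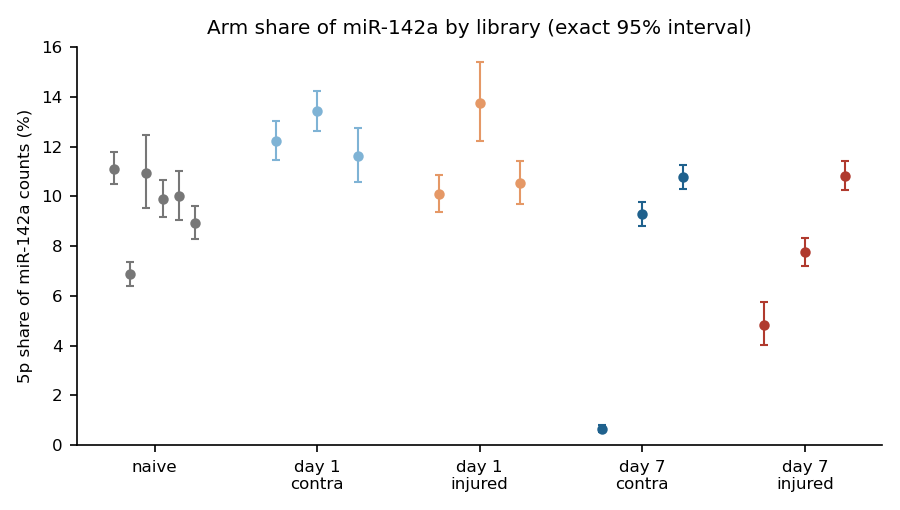
Share of miR-142a counts from the 5p arm (y axis, percent) in each library, by group, with exact 95% binomial intervals, which cover counting error only. Day 7 contralateral replicate 1 lies at 0.643% and the other 17 libraries between 4.84% and 13.8%.

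None of the NF-κB-induced members passed the test in any comparison. miR-155-5p had 91.6 CPM at the lowest, 123.9 at the median and 153.1 at the highest in naïve libraries, and 199.2, 159.8 and 104 CPM in day 7 injured libraries. The means were 121.6 ± 22.4 (SD, n = 6) and 154.2 ± 48.0 CPM (SD, n = 3), and the log2 fold change was 0.30 ± 0.32 (SE; adjusted p = 0.582, limma-voom). Day 1 contralateral libraries held 99.1, 125.9 and 155.4 CPM and day 1 injured libraries 131.6, 131.5 and 89.4 CPM. Day 7 contralateral libraries held 337.9, 114 and 110.2 CPM, with the high value again in replicate 1. The log2 fold change of day 7 injured relative to contralateral libraries was -0.12 ± 0.37 (SE; adjusted p = 0.885), and 0.46 without that replicate.

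miR-146a-5p was the most abundant member in naïve cartilage and had the narrowest range, 1.60-fold from the lowest to the highest of the 18 libraries. Naïve libraries held 3398 CPM at the lowest, 3804 at the median and 5263 at the highest, and day 7 injured libraries 4392, 4516 and 3544.3 CPM. The log2 fold change was 0.06 with a 95% interval from -0.32 to 0.44 (adjusted p = 0.845, limma-voom), and -0.07 with library totals alone. Day 1 contralateral libraries held 4385, 5178 and 4859 CPM, all above the day 1 injured libraries at 3449.9, 4134 and 3786 CPM. The log2 fold change was -0.35 ± 0.21 (SE) with an adjusted p of 0.997 (limma-voom). The share of all tested miRNAs without overlap was not counted for this comparison. Day 7 contralateral libraries held 5437, 3825 and 4509 CPM and overlapped the injured ones. Without replicate 1, the library at 5437 CPM, the log2 fold change of day 7 injured relative to contralateral libraries was 0.05 (adjusted p = 0.943).

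miR-146b-5p, with the same seed, averaged 879.2 ± 131 CPM (SD, n = 6) in naïve libraries, between 650.1 and 990.1 CPM with a median of 934.996. Day 1 contralateral libraries held 1122, 846 and 940.1 CPM, day 1 injured 901, 871.999 and 617, day 7 contralateral 1138, 660.3 and 1117, and day 7 injured 839, 756 and 777 CPM. Injured and naïve libraries overlapped at both days. The log2 fold change at day 7 was -0.14 with a 95% interval from -0.60 to 0.32 relative to naïve (adjusted p = 0.735, limma-voom). It was -0.24 ± 0.25 (SE; adjusted p = 0.630) relative to contralateral libraries, and -0.04 without day 7 contralateral replicate 1.

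**Figure D3:**
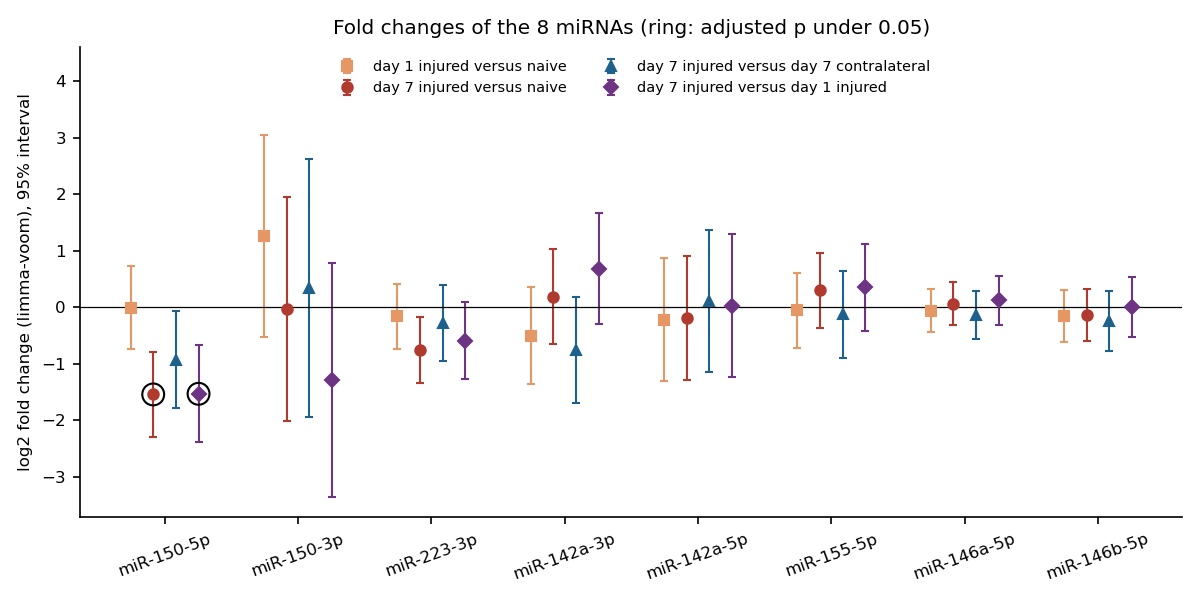
Fitted log2 fold changes (y axis, limma-voom, with 95% intervals) of the 8 members in 4 comparisons that involve injured knees, with a ring where the adjusted p was under 0.05. miR-150-5p carries both rings, at -1.54 for day 7 injured versus naïve and -1.53 for day 7 versus day 1 injured, and the intervals of miR-150-3p are the widest.

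At day 1, 0 of the 8 members passed, relative to naïve or to contralateral libraries, and 0 had an unadjusted p under 0.05. Over all 428 miRNAs, 0% were called by limma-voom in both comparisons, with 8 at an unadjusted p under 0.05 in each, and edgeR and DESeq2 called 0 in both. Member log2 fold changes lay between -0.50 and 1.25 relative to naïve and between -0.38 and 0.80 relative to contralateral libraries, the highest being miR-150-3p in both. For miR-150-5p the day 1 injured versus naïve value was -0.01 with a 95% interval from -0.75 to 0.72, so a fall as large as 2.91-fold lay outside the interval.

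Among uninjured knees 0% of miRNAs were called by limma-voom in day 7 contralateral versus naïve, 0% in day 1 contralateral versus naïve and 0% in day 7 versus day 1 contralateral, and 0 members passed limma-voom, edgeR or DESeq2. Unadjusted, 23, 4 and 25 miRNAs were under 0.05, edgeR called 0 in each, and DESeq2 called 1, 0 and 2. The members under 0.05 unadjusted were miR-142a-3p in day 7 contralateral versus naïve (log2 fold change 0.94 ± 0.39, SE; adjusted p = 0.675) and in day 7 versus day 1 contralateral (1.21 ± 0.45, SE; adjusted p = 0.701). Both values include the library at 10184 CPM, and without it they were 0.51 and 0.84, with unadjusted p of 0.233 and 0.0868. miR-150-5p differed by -0.61 ± 0.35 (SE; adjusted p = 0.675) between day 7 contralateral and naïve libraries, and by -0.65 without day 7 contralateral replicate 1.

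Ratios within a library compare the lymphoid, myeloid and pan-leukocyte members without any scaling between libraries. The ratios were tested by exact two-sided permutation of the difference of group means, for which 3 libraries against 6 allow no p below 0.0238, with adjustment over 7 ratios. The permutation treats the libraries as independent, although naïve libraries share mice. In the 3 day 7 injured libraries there were 16.8, 17.3 and 17.4 counts of miR-142a-3p for each count of miR-150-5p. In naïve libraries there were between 1.19 and 11.2, and the groups did not overlap. On the log2 scale the miR-150-5p to miR-142a-3p ratio was -4.10 ± 0.03 (SD, n = 3) in injured and -2.37 ± 1.21 (SD, n = 6) in naïve libraries, a difference of -1.73 (exact permutation p = 0.0238, adjusted p = 0.0833).

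The miR-223-3p to miR-142a-3p ratio was also lower in all 3 day 7 injured libraries than in any naïve library, at -2.43 ± 0.14 (SD, n = 3) relative to -1.49 ± 0.56 (SD, n = 6), a difference of -0.94 (exact permutation p = 0.0238, adjusted p = 0.0833). The smallest possible p was reached by both ratios, and neither passed after adjustment. A ratio cannot go below that p however far its groups lie apart. Not passing after adjustment therefore does not show that these ratios were unchanged. The miR-150-5p to miR-223-3p ratio differed by -0.80, from -0.88 ± 0.81 (SD, n = 6) in naïve to -1.68 ± 0.12 (SD, n = 3) in injured libraries, with overlap (exact permutation p = 0.143, adjusted p = 0.333). A larger fall of the lymphoid than of the myeloid member was therefore not shown by this test.

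**Figure D4:**
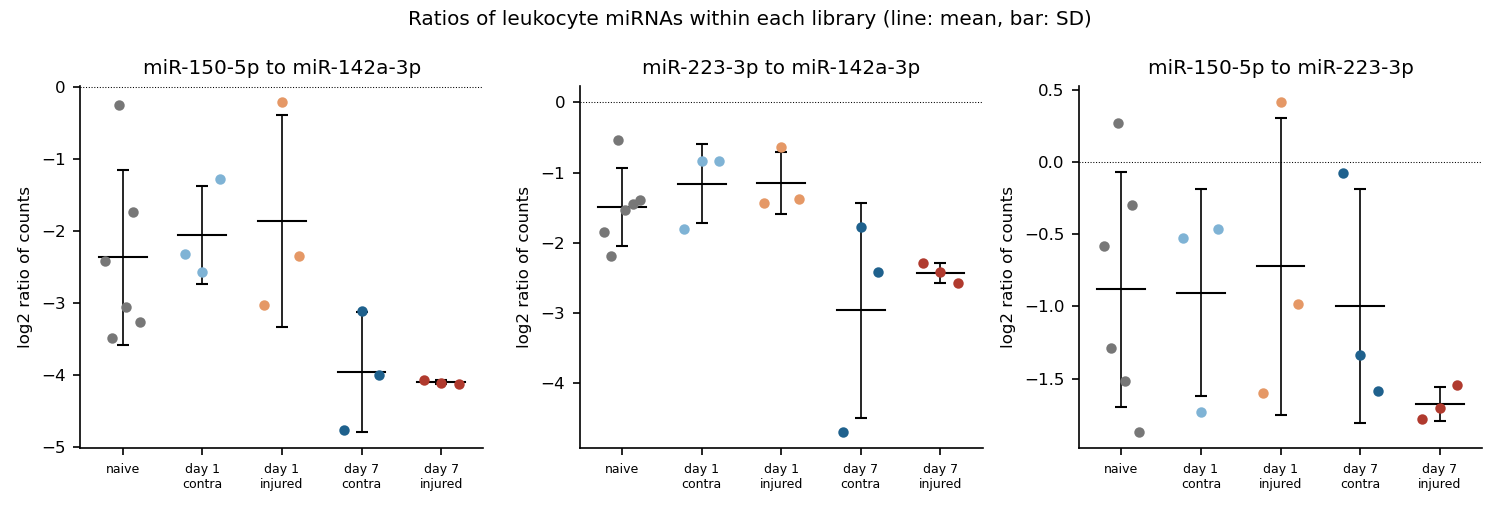
Log2 ratios of counts within each library (y axis, points) for 3 pairs of leukocyte miRNAs, by group, with mean (line) and SD (bar). In the first pair the day 7 injured libraries lie at -4.12 to -4.07, below the naïve libraries at -3.48 to -0.25, and the day 7 contralateral libraries at -4.76 to -3.11 lie on both sides of them.

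The contralateral knees of day 7 overlapped the injured ones in these 3 ratios. The miR-150-5p to miR-142a-3p ratio was -3.96 ± 0.83 (SD, n = 3) and the miR-223-3p to miR-142a-3p ratio -2.96 ± 1.53 (SD, n = 3) in day 7 contralateral libraries. Replicate 1 of that group, with 25.8 counts of miR-142a-3p for each of miR-223-3p, set the low end, and the other replicates had 3.42 and 5.35. For miR-150-5p to miR-142a-3p the overlap rested on replicate 1, at -4.76: the other replicates, at -3.11 and -4.002, lay above all 3 injured libraries. With 3 libraries against 3, no p under 0.10 was possible and no test was made. At day 1, the 7 ratios of injured relative to naïve libraries had exact permutation p of 0.381 or more and adjusted p of 0.708 or more.

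No ratio of an inflammatory member to miR-142a-3p passed at day 7. The differences from naïve were 0.12 for miR-155-5p, -0.12 for miR-146a-5p and -0.33 for miR-146b-5p, each relative to miR-142a-3p, with adjusted p of 0.944, 0.952 and 0.60 (exact permutation). The miR-146b-5p to miR-146a-5p ratio was -2.38 ± 0.19 (SD, n = 3) in day 7 injured and -2.17 ± 0.36 (SD, n = 6) in naïve libraries, and differed by -0.21 (exact permutation p = 0.357, adjusted p = 0.60).

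Within groups, libraries with more miR-142a-3p were compared for the other members as deviations of log2 CPM from the group means over 18 libraries, with 100000 permutations within groups and adjustment over 6 relations. None of the 6 passed after adjustment. The highest was miR-146b-5p (Pearson r = 0.68, permutation p = 0.0204, adjusted 0.0618, Spearman rho = 0.62, permutation p = 0.0301, adjusted 0.181), and r was 0.34 without the 2 libraries farthest from the median. Those were naïve replicate 3 and day 7 contralateral replicate 2, so day 7 contralateral replicate 1 was kept. The erythroid miR-451a, a red cell miRNA, had r = 0.64 (permutation p = 0.0206, adjusted 0.0618, rho = 0.52, permutation p = 0.0754, adjusted 0.193), and r = 0.56 without those libraries.

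miR-150-5p went the other way within groups, with r = -0.50 (permutation p = 0.0529, adjusted 0.106, rho = -0.45, permutation p = 0.0967, adjusted 0.193), and r = -0.50 without the 2 libraries. miR-223-3p had r = 0.05 (permutation p = 0.891, adjusted 0.891, rho = -0.05, permutation p = 0.878, adjusted 0.878) and r = -0.31 without the 2 libraries. miR-155-5p had r = 0.30 (permutation p = 0.381, adjusted 0.491, rho = 0.24, permutation p = 0.433, adjusted 0.650) and miR-146a-5p r = 0.25 (permutation p = 0.409, adjusted 0.491, rho = 0.11, permutation p = 0.709, adjusted 0.851), and without the 2 libraries r was 0.32 and 0.06.

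The miRNAs most like each member over the 18 libraries, each compared with the other tested miRNAs that had a mean of at least 10 CPM, are given as a description. Points share libraries, groups and depth. They include day 7 contralateral replicate 1, which held the highest CPM of miR-142a-3p and of miR-155-5p, and no correlation was computed without it. Closest to miR-150-5p were miR-106b-3p (r = 0.91) and the pair miR-486a-5p/miR-486b-5p (r = 0.88; their counts were the same, so they are 1 measurement). Closest to miR-223-3p were miR-17-5p (r = 0.86), miR-20b-5p (0.86) and miR-106a-5p (0.83). For miR-142a-3p they were miR-19a-3p (r = 0.93), miR-144-3p (0.88) and miR-101a-3p (0.85), and for miR-155-5p miR-374b-5p (0.92), miR-26a-2-3p (0.84) and miR-365-3p (0.79). miR-146b-5p was most like miR-192-5p (r = 0.79), miR-19a-3p (0.75) and miR-18a-5p (0.75), and miR-146a-5p had no correlation above 0.69, reached by miR-350-3p, ahead of miR-17-3p (0.68) and miR-7a-5p (0.64). No member was among the 3 closest of another.

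A further 22 miRNAs linked to leukocytes or to NF-κB were in the table, of which 17 were tested. In day 7 injured versus naïve cartilage 3 fell and 0 rose, with a median log2 fold change of -0.40 relative to 0.00 over all tested miRNAs, of which 18.2% were called and 3.74% called as lower. miR-342-3p, abundant in lymphocytes, fell from 148.5 ± 33.98 (SD, n = 6) to 76.8 ± 10.4 CPM (SD, n = 3; 1.90-fold, adjusted p = 0.0190, limma-voom). The other arm of its hairpin, miR-342-5p, was far less abundant and had no lower mean, at 9.09 ± 3.64 and 11.4 ± 5.56 CPM. miR-181a-5p, known for tuning T cell receptor signalling but made by many tissues, fell from 14985 ± 2698 to 8811 ± 1740 CPM (1.72-fold, adjusted p = 0.0154). miR-181d-5p of the same family fell from 426 ± 21.5 to 279 ± 16.6 CPM (1.53-fold, adjusted p = 0.0412). miR-125a-5p, the second most abundant of the list, had 6891 ± 1618 and 5487 ± 211.8 CPM (adjusted p = 0.419). The 5p arm of miR-223 had 288 ± 78.1 and 211.2 ± 20.8 CPM (adjusted p = 0.374), and the antisense miR-142b lay between 3.35 and 27.5 CPM in all libraries.

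Relative to day 7 contralateral libraries, 1 of the 17 rose and 0 fell, with a median of -0.34 relative to -0.05 over all tested miRNAs, of which 14.7% were called, 13.8% as higher and 0.935% as lower. The miRNA that rose was miR-212-5p, from a locus induced by CREB signalling, at 36.6 ± 9.58 relative to 18.1 ± 3.15 CPM (SD, n = 3; log2 fold change 0.99 ± 0.31, SE; adjusted p = 0.0319, limma-voom). Without day 7 contralateral replicate 1 its log2 fold change was 0.96 and the adjusted p 0.0527, and the call was lost. The values of miR-181a-5p in this comparison were 8811 and 14263 CPM, with an adjusted p of 0.0656, and without that replicate miR-181a-5p was called as lower (log2 fold change -0.78, adjusted p = 0.0345). For miR-342-3p they were 76.8 and 97.7 CPM, with an adjusted p of 0.633, and 0.33 without it.

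Markers of other cells moved in part with miR-150-5p. The erythroid list has 7 miRNAs but 6 separate measurements, since the counts of miR-486a-5p and miR-486b-5p were the same. With that measurement counted once, the summed level lay between 6512 and 9057 CPM in naïve, 6052 and 9083 in day 7 contralateral and 3391 and 4523 CPM in day 7 injured libraries. The largest part of the sum was miR-486a-5p, at 4979 ± 1095 CPM (SD, n = 6) in naïve and 2150 ± 418 CPM (SD, n = 3) in day 7 injured libraries. In day 7 injured versus naïve cartilage 4 of the 7 fell, where 3.74% of all tested miRNAs were called as lower. All 4 were miR-486 arms, which muscle also makes, and they are at most 3 separate measurements. The same 4 fell relative to day 1 injured libraries, where 3.50% of all were called as lower. Relative to day 7 contralateral libraries 2 of the 7 were called as lower, which need not be separate measurements. All 7 log2 fold changes were negative there, with a median of -0.89, and 0.935% of all tested miRNAs were called as lower. The defining erythroid marker miR-451a had 1338 ± 506 (SD, n = 6) and 1094 ± 272 CPM (SD, n = 3) in naïve and day 7 injured libraries, with an adjusted p of 0.723 (limma-voom).

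The summed muscle list was between 74266 and 225981 CPM in naïve, between 154415 and 280440 in day 7 contralateral and between 79451 and 151213 CPM in day 7 injured libraries. All 8 tested muscle miRNAs had negative log2 fold changes in day 7 injured libraries, with a median of -0.46 relative to naïve, -0.86 relative to day 7 contralateral and -0.51 relative to day 1 injured libraries. None passed in the first 2 of these comparisons, and miR-133a-5p passed in the last (-1.42 ± 0.47, SE; adjusted p = 0.0453, limma-voom; named after its value was seen). Without day 7 contralateral replicate 1, the log2 fold change of miR-1a-3p relative to that group was -0.53 (adjusted p = 0.646, limma-voom). The median of the muscle list was not computed without that library. The vascular list was between 48414 and 83557 CPM in naïve and between 74494 and 81139 CPM in day 7 injured libraries, with 0 of 6 passing, and the cartilage list between 6172 and 10499 and between 6756 and 9983 CPM, with 0 of 4 passing. No defining marker of these lists was at 0. The part of these cells in the fall of miR-150-5p was not tested.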

How the data were processed

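Small RNA libraries (NEBNext kit) of femoral condyle cartilage were processed by the authors with the nf-core small RNA-Seq pipeline (Trim Galore 0.6.6, Bowtie 1.3.0 against miRBase mature sequences, SAMtools 1.12, genome GRCm38) and deposited as raw, unnormalised counts per mature miRNA. The handling of reads with several matches or with mismatches is not given in the sources used here. A row was given to the sample whose title holds the same library number, although the prefixes differ. Replicates were numbered in accession order.

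Counts were filtered with filterByExpr (edgeR 4.0.16, R 4.3.3; 428 of 1412 miRNAs kept), scaled with TMM and fitted with limma-voom (limma 3.58.1) over all 18 libraries with 1 mean per group. P-values were adjusted by Benjamini-Hochberg over all tested miRNAs within each comparison (threshold 0.05). The authors' duplicateCorrelation for shared mouse pools was not refitted, because the labels do not name the pools. Naïve libraries of left and right knees share mice, and injured and contralateral libraries of a day can. The fit and the permutation tests treated all libraries as independent. Exact permutation tests of ratios (0.5 added to each count) used scipy 1.17.1, and figures matplotlib 3.10.9. CPM used a prior count of 2 where log-transformed. Totals of 758388 to 4088852 counts set the precision of low miRNAs. The exact binomial intervals of the arm shares cover counting error only. Intervals of fold changes come from the limma-voom fit and reflect the spread between libraries. The fit was tried on simulated counts, and the permutation test on small made-up groups of numbers.

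The members and lists were chosen with earlier results of these data known. Named were the 8 members, the miRNAs of the further leukocyte list that passed in a day 7 injured comparison, its 2 most abundant, the 3 most correlated miRNAs per member and defining markers. miR-223-5p, miR-142b, miR-133a-5p and the day 7 contralateral values of miR-342-3p and miR-181a-5p were added after their values were seen. So were miR-342-5p and the levels of miR-486a-5p, miR-144-3p and miR-144-5p. Alternatives were DESeq2 size factors, library totals, TMM without muscle miRNAs, 2 other filters (at least 1 count in all, or 10 in every library), DESeq2 1.42.0, the quasi-likelihood test of edgeR, quality weights, only the groups compared, a ratio pseudocount of 5, each library left out and, added later, the within-group component as a covariate.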

Additional observations from a re-analysis of the deposited data

Results flagged for a closer look

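Values that stood apart were sought in the 6 naïve libraries, in 17 measures (CPM of the 8 members, 7 log2 ratios and 2 arm shares), by the gap of the highest or lowest library to its neighbour relative to the whole range. About 1 in 20 such groups is expected to be picked by chance, and 3 were. Naïve replicate 6 held 5263 CPM of miR-146a-5p, with a gap of 0.718 of the range. Naïve replicate 3 had a log2 ratio of miR-155-5p to miR-142a-3p of -3.01, with a gap of 0.682 of the range. Naïve replicate 6 had a 5p share of miR-150 of 98.3%, with a gap of 0.732 of the range, which rests on 11 counts of the 3p arm. The groups of 3 libraries were not examined in this way.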

How the results depend on the processing

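In day 7 injured versus naïve cartilage, 2 members passed in place of 1 with library totals, DESeq2, quality weights, only the groups compared, or the within-group component as a covariate, and 1 to 2 passed with a library left out. The second was miR-223-3p each time. Against day 7 contralateral, 1 member passed in place of 0 with only the groups compared and with the component covariate, and 0 with any library left out. Against day 1 injured, 0 passed with library totals, 2 with quality weights, and 0 to 1 with a library left out. The causes were not tested. Counts of the other 6 comparisons stayed at 0 under every alternative run.

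Near-zero values changed sign. Against naïve, miR-146a-5p was -0.0733 with library totals, and quality weights gave -0.0153 for miR-142a-3p and 0.20 for miR-150-3p. With a library left out, miR-142a-3p ranged from -0.10 to 0.32, miR-142a-5p from -0.45 to 0.23 and miR-150-3p from -0.75 to 0.39. Against day 7 contralateral, edgeR and DESeq2 gave -0.34 and -0.31 for miR-142a-5p and -0.54 and -0.57 for miR-150-3p, and quality weights -0.72 for miR-142a-5p and 0.35 for miR-155-5p. With a library left out, the ranges were -0.75 to 0.81 (miR-142a-5p), -0.42 to 0.46 (miR-155-5p), -0.22 to 0.0516 (miR-146a-5p) and -0.85 to 1.33 (miR-150-3p). Against day 1 injured, miR-146b-5p was -0.0181 with every miRNA of at least 1 count, -0.0111 with edgeR and -0.0301 with quality weights, and miR-142a-5p -0.11 with quality weights. With a library left out, they ranged from -0.059 to 0.25 and from -0.13 to 0.54. The log2 ratio differences ranged from -0.12 to 0.44 (miR-155-5p to miR-142a-3p) and from -0.25 to 0.18 (miR-146a-5p to miR-142a-3p). None of these values passed the test.

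Library totals moved the median of all miRNAs in day 7 injured versus naïve from 0.00 to -0.13 and in day 1 injured versus naïve from 0.07 to -0.15, and miR-150-5p was still called in the former. The split of all calls was 62 higher and 16 lower with TMM and 54 higher and 11 lower with library totals. It was 80 and 55 with quality weights, 69 and 28 with only the groups compared, 69 and 22 with the component covariate, and 58 and 8 with every miRNA of at least 1 count. With 10 counts in every library it was 35 and 13. Without day 7 injured replicates 1 and 3, it was 61 and 7, and 55 and 3. No paired analysis was possible because the labels carry no replicate numbers and do not tie libraries to animals or pools. Leaving out a day 7 injured library leaves 2 libraries, for which the ratio tests cannot reach 0.05. miR-150-3p did not pass the filter of 10 counts in every library and has no value there.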
